A study of Mus musculus with 32 samples.

Results

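The 9 genes described here belong to iron handling. They include the hepcidin genes Hamp and Hamp2, the hepcidin regulators Bmp6 and Tfr2, and Id1, a gene that BMP signalling switches on. The others are the uptake and transport genes Tfrc and Trf, the iron exporter Slc40a1 and the ferritin heavy chain Fth1. All 9 were chosen by name, and their probes were found through the RefSeq transcript each array probe is assigned to. Of 23109 genes tested, these are 9, read by 12 probes of which 11 passed the filter on dim signals, and each of the 9 was well above background on all 32 arrays. The study asked how chronic jet lag affects the liver of wild-type C57BL/6 male mice that were housed singly. Steady mice (labelled NS) had 12 hours of light and 12 hours of dark, and jet-lagged mice (labelled CJ) were moved, from 4 weeks of age on, between rooms whose light onset differed by 8 hours. No group carries a deletion or a transgene, and no group received a drug. Livers were taken at 12 or 30 weeks of age and at zeitgeber time (ZT) 2, 10 or 18, with lights on at ZT0 and off at ZT12, which makes 12 groups of 3 mice, or 2 at ZT2. Each array holds the RNA of 1 mouse. How ZT was set for jet-lagged mice on the day of sampling, after moves between rooms, is not given in the sources used here, so a jet-lagged group at a ZT is compared with the steady group of the same label.

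Hepcidin is a peptide hormone of the liver that binds ferroportin, the only known cellular iron exporter and the product of Slc40a1, and causes its degradation, so that less iron enters the blood. Hepatocytes raise Hamp transcription in response to BMP6, which liver endothelial cells secrete when iron is plentiful, through receptors, SMAD proteins and an element in the Hamp promoter, and in response to interleukin 6 through STAT3 and a second element. Mice have a second copy, Hamp2, whose product does not control iron in the way that of Hamp does. Transferrin (Trf) carries iron in plasma, transferrin receptor 1 (Tfrc) takes it into cells, transferrin receptor 2 (Tfr2) senses iron-loaded transferrin in hepatocytes, and ferritin stores iron inside the cell.

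Both hepcidin genes lie on mouse chromosome 7, Hamp at chr7:30942368-30944029 and Hamp2 at chr7:30922372-30924181 on the minus strand of GRCm38.p6. The 250 bases upstream of each gene start are shown because the copies differed between schedules in opposite directions at 12 weeks. The letters of the BMP response element also differ between them, and whether this bears on their levels was not tested. The sequences come from RefSeq, at chr7:30944030-30944279 for Hamp and chr7:30924182-30924431 for Hamp2, on the minus strand and 5′ to 3′. Capitals mark the matches to the motifs searched.
Hamp upstream: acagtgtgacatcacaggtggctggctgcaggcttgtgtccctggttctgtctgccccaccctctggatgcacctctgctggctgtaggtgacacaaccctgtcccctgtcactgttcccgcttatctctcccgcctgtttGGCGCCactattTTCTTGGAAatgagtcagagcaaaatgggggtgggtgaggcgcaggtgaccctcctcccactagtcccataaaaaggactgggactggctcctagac
Hamp2 upstream: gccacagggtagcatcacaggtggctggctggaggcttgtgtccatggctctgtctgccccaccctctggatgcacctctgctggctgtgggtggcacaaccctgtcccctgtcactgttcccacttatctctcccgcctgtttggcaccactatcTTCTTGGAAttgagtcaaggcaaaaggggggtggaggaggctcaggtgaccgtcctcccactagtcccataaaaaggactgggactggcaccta
A global alignment gave 227 identical bases in 253 columns, or 89.7%. Both windows hold the STAT element TTCNNNGAA, starting 97 bases before the start of Hamp and 94 bases before that of Hamp2, with no base different. The BMP response element GGCGCC is present only in the Hamp window, starting 109 bases before the gene start, and the aligned Hamp2 bases differ from it by G4A (the base of Hamp, the position from 1 at the first base of the motif, then the base of Hamp2). Searched on both strands, GGCGCC is found in 9.59% of 32851 RefSeq upstream windows of 250 bases, and TTCNNNGAA in 7.02%. The E-box CACGTG (6.02% of windows) and the D-box TTANNTAA (5.43%), letters bound by clock factors, match neither hepcidin window. RefSeq windows were at hand for 6 of the 9 genes. Among the other members, CACGTG matches once upstream of Bmp6 and GGCGCC once in 1 of the 2 windows of Tfrc, and none of the 4 motifs matches the windows of Tfr2 or Fth1. Windows of Trf, Slc40a1 and Id1 were not used here. A match is a description of letters and not a bound site.

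Loci of all members are given on GRCm38.p6. Levels below are log2 intensities relative to the 75th percentile of each array, so that a difference of 1 is a doubling, and they are compared only within a gene. Differences between groups are fitted with limma with the array slide as a random block and are given ± SE, and a gene is called when its p, adjusted over all genes tested by Benjamini-Hochberg, is under 0.05. Between 43.4% and 58.1% of probes were well above background on each array, and no spot was saturated. The labels give separate mice and no litters, so the p-values measure the spread between these mice. In whole-tissue RNA, fewer cells of a type and less RNA per cell cannot be told apart. Hepatocyte markers (9 of 9 measured) lay between 9.24 and 9.82 on average in all livers, and 10 arrays, 7 of them jet-lagged, had a mean of the 7 measured pancreatic acinar markers above 0, up to 4.47. Hamp and Hamp2 are close copies, and how far the probe of each reads the transcript of the other was not tested.

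Hamp2 was the member with the widest spread, 5.57 between its lowest and highest liver, against 1.78 for Hamp and 0.56 for Tfr2, the narrowest. Averaged over the 3 times, jet-lagged livers at 12 weeks had less Hamp2 and more Hamp, and at 30 weeks less Hamp2. Thus 2 of 9 members were called at 12 weeks, where 4.44% of all genes were, and 1 at 30 weeks (6.25% of all genes). At single times, counts were 0 at ZT2 (0.255% of all genes), 1 at ZT10 (1.71%) and 0 at ZT18 (2.83%) at 12 weeks, with 2 and 3 members at unadjusted p under 0.05 in limma at ZT2 and ZT18. At 30 weeks they were 1 at ZT2 (1.36%), 0 at ZT10 (0.736%), with 1 member at unadjusted p under 0.05, and 1 at ZT18 (3.47%). Of the members called at single times, Hamp2 was lower in jet-lagged mice at ZT10 at 12 weeks and at ZT2 at 30 weeks, and Id1 was higher at ZT18 at 30 weeks.

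At 12 weeks the steady livers had Hamp2 levels of 3.86 and 4.34 at ZT2, 3.72, 4.09 and 5.04 at ZT10, and 4.40, 3.81 and 4.93 at ZT18. The jet-lagged livers had 2.26 and 4.58 at ZT2, 1.80, 2.14 and 3.12 at ZT10, and 2.16, 2.66 and 2.75 at ZT18. All jet-lagged livers but the one at 4.58 were below every steady liver of that age. The fitted difference was -1.47 ± 0.32 (8 against 8 mice, 95% interval -2.13 to -0.82, limma adjusted p = 0.0119), a 2.78-fold lower signal, and -1.53 without the acinar-rich arrays (adjusted p = 0.0688). At ZT10 alone it was -2.27 ± 0.54 (3 against 3, adjusted p = 0.031), with no overlap. The groups did not overlap at ZT18 either, with a difference of -1.60 ± 0.54 that was not called (adjusted p = 0.122), and they overlapped at ZT2 (-0.54 ± 0.67, adjusted p = 0.799). With the marker means of acinar and muscle cells as covariates the ZT10 difference was -2.00 with adjusted p = 0.315, and it lost its call without steady mouse 2 or 3 or jet-lagged mouse 1 or 2 of that time (-2.30 to -1.90, adjusted p = 0.0641 to 0.222), with no filter on dim probes (-2.27, adjusted p = 0.0581), with no slide block (-1.93, adjusted p = 0.115) and without the acinar-rich arrays (-2.89, adjusted p = 0.254). The muscle marker mean also separated the schedules at that time, from -0.02 to 1.80 in jet-lagged and from -4.45 to -1.56 in steady livers.

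At 30 weeks the steady livers had Hamp2 levels of 3.48 and 1.17 at ZT2, 1.59, 2.20 and 3.47 at ZT10, and 2.89, 2.70 and 2.20 at ZT18. The jet-lagged livers had -0.54 and 0.04 at ZT2, 1.37, 0.80 and 0.90 at ZT10, and 2.63, 3.21 and 2.42 at ZT18. The jet-lagged livers were thus lowest at ZT2, below both steady livers, also below all 3 steady livers at ZT10, and among them at ZT18. Over the 3 times the difference was -1.31 ± 0.32 (8 against 8 mice, adjusted p = 0.0145), and by time it was -2.90 ± 0.67 at ZT2 (2 against 2, adjusted p = 0.03), -0.98 ± 0.54 at ZT10 (adjusted p = 0.484) and -0.03 ± 0.54 at ZT18 (adjusted p = 0.987). Without all ZT2 mice the mean difference was -0.51 (adjusted p = 0.445), and with no slide block it was -1.27 (adjusted p = 0.0526). Without the acinar-rich arrays it was -1.42 (adjusted p = 0.0632). Without ZT2 steady mouse 1 it was -0.94 (adjusted p = 0.115), and without ZT2 jet-lagged mouse 1 it was -1.17 (adjusted p = 0.0893), and the difference at ZT2 itself was then -1.80 and -2.50 and not called. The ZT2 call was also lost with no filter on dim probes (-2.90, adjusted p = 0.0569), slide as a fixed block (-3.26, adjusted p = 0.0504), no slide block (-2.57, adjusted p = 0.0778), without the acinar-rich arrays (-2.89, adjusted p = 0.0652) and in the authors' deposited table (-2.10, limma adjusted p = 0.0724).

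**Figure D1:**
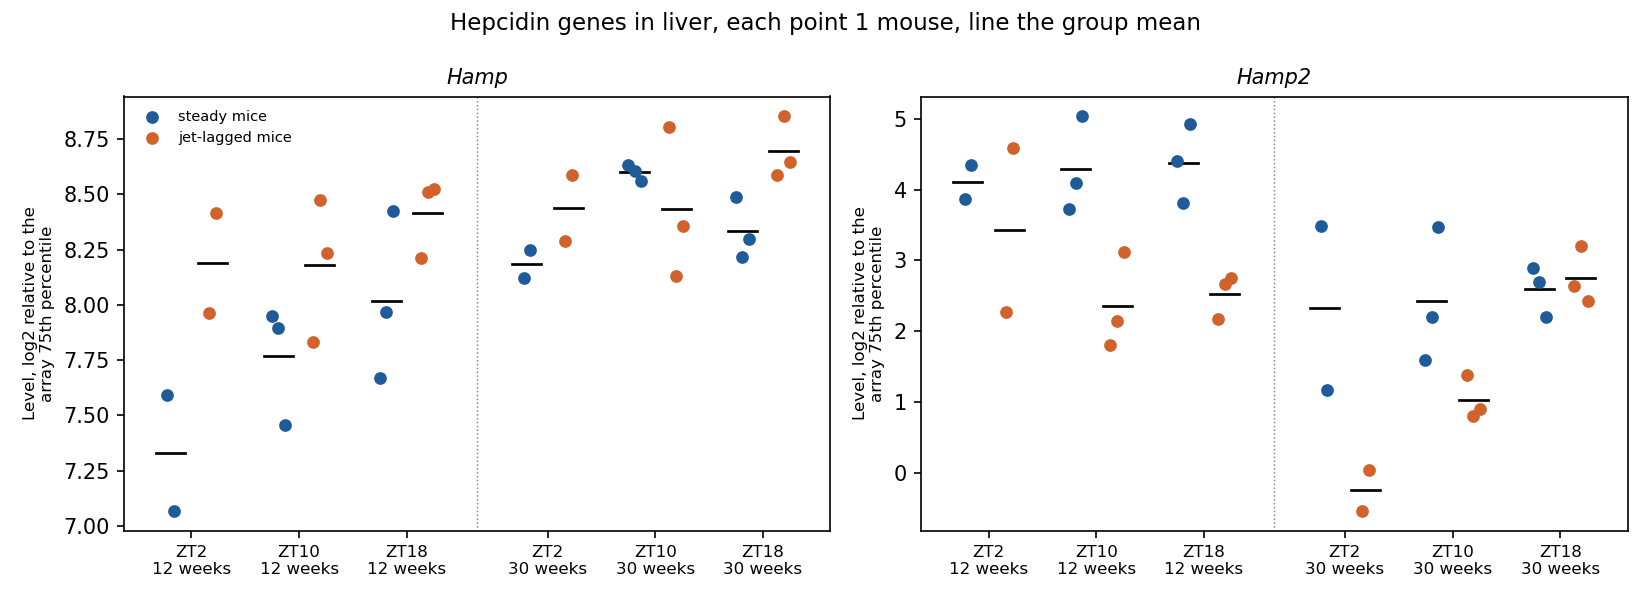
Levels of Hamp (left) and Hamp2 (right), log2 relative to the 75th percentile of each array, by time of day and age, with 1 point per mouse and the group mean as a line. Hamp2 lies below the steady livers in most jet-lagged groups, down to -0.54 at ZT2 and 30 weeks, and Hamp is lowest, at 7.07, in a steady liver at ZT2 and 12 weeks.

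The jet-lagged livers with the least Hamp2, both from ZT2 at 30 weeks, also had the highest and the third highest Saa1 of the 32. Saa1, a serum amyloid and a standard marker of the acute phase response, was at 10.26 and 9.46 in them, against 4.77 and 4.55 in the steady livers of that time. Of 21 measured acute phase genes, 6 were higher and 0 lower there, where 1.36% of all genes were called, among them Saa1 by 5.69 ± 0.87 and Lcn2, which binds iron-carrying siderophores, by 3.59 ± 0.63 (adjusted p = 0.00109 and 0.00368). Hamp, a known interleukin 6 target, was at 8.29 and 8.59 in the same livers, against 8.12 and 8.25, a difference of 0.33 ± 0.24 (adjusted p = 0.661). Their 5 measured erythroid markers averaged 2.78 and 2.71, against 3.35 and 3.02 in the steady livers. The liver with the second highest Saa1, 9.87, jet-lagged mouse 2 of ZT10 at 12 weeks, had Hamp2 at 2.14, and jet-lagged mouse 3 of ZT10 at 30 weeks had Saa1 at 7.60 and Hamp2 at 0.90. Hamp2 was also low, at 1.80, 1.37 and 0.80, in jet-lagged livers whose Saa1 was 6.36, 4.98 and 5.53. The part of the acute phase genes in the Hamp2 difference was not tested.

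**Figure D2:**
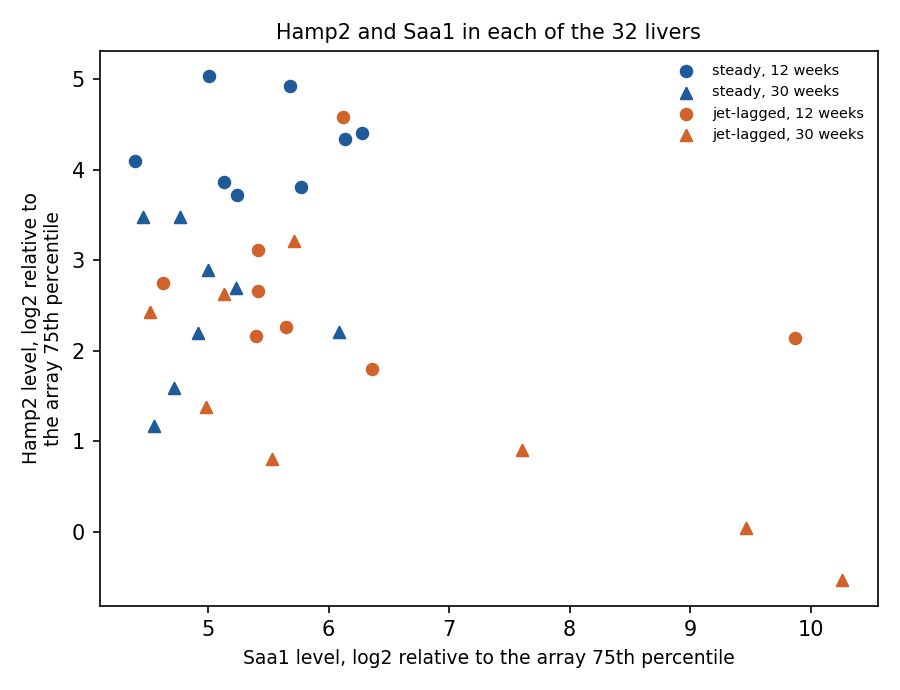
Hamp2 level against Saa1 level in each of the 32 livers, both log2 relative to the 75th percentile of the array, coloured by schedule and shaped by age. The livers at Saa1 levels of 9.46 and 10.26 have Hamp2 at 0.04 and -0.54, those at 9.87 and 7.60 have it at 2.14 and 0.90, and livers with Saa1 at or under 6.36 have Hamp2 from 0.80 to 5.04.

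Hamp went the other way at 12 weeks. Steady livers had Hamp levels of 7.59 and 7.07 at ZT2, 7.95, 7.90 and 7.46 at ZT10, and 7.67, 7.97 and 8.42 at ZT18. Jet-lagged livers had 7.96 and 8.42 at ZT2, 7.83, 8.48 and 8.23 at ZT10, and 8.21, 8.51 and 8.52 at ZT18. The jet-lagged livers were higher at each time, without overlap at ZT2 alone. The fitted difference was 0.56 ± 0.11 (8 against 8 mice, 95% interval 0.33 to 0.79, adjusted p = 0.00763), a 1.47-fold higher signal, and no single time was called (0.86, 0.40 and 0.41 at ZT2, ZT10 and ZT18, adjusted p = 0.146 to 0.28). It lost its call without all ZT2 mice (0.40, adjusted p = 0.11) and without the acinar-rich arrays (0.35, adjusted p = 0.151), and kept it with acinar and muscle marker means as covariates (0.55, adjusted p = 0.0169). The acinar marker mean of the 12-week livers ran from -1.98 to 1.68 in steady mice and from -1.74 to 4.47 in jet-lagged mice.

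At 30 weeks no schedule difference was called for Hamp. Steady livers ran from 8.12 to 8.63, with a median of 8.39, and jet-lagged livers from 8.13 to 8.85, with a median of 8.59. The difference was 0.16 ± 0.11 (95% interval -0.07 to 0.39, adjusted p = 0.482). The change of the schedule difference between ages, -0.40 ± 0.16, was not called (adjusted p = 0.267), so that the ages are not shown to differ. On 4 slides were a steady and a jet-lagged liver of the same time and age, 1 pair per slide at ZT10 or ZT18. Within these slides Hamp2 was lower in the jet-lagged liver, with differences of -3.24, -1.74, -0.83 and -0.27, and Hamp was higher by 0.37, 0.84, 0.20 and 0.43.

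The hepcidin genes also differed by age. Jet lag began at 4 weeks of age, so older jet-lagged mice had also been jet-lagged for longer. For every gene, age and length of jet lag cannot be told apart in jet-lagged mice. From 12 to 30 weeks Hamp rose in steady mice by 0.67 ± 0.11 (adjusted p = 0.00181), a 1.59-fold higher signal, and its 12-week median of 7.78 lay below the lowest 30-week liver. Without all ZT2 mice the rise was 0.56 (adjusted p = 0.0762). In jet-lagged mice the difference was 0.27 ± 0.11 (adjusted p = 0.157), and it passed with normexp background correction (0.36, adjusted p = 0.0266) and quantile normalisation (0.38, adjusted p = 0.0212). Hamp2 fell by 1.78 ± 0.32 in steady mice (adjusted p = 0.00396) and by 1.61 ± 0.32 in jet-lagged mice (adjusted p = 0.00454). The 12-week steady livers, from 3.72 to 5.04, did not overlap the 30-week steady livers, from 1.17 to 3.48, whereas the jet-lagged ages overlapped. The steady Hamp2 difference passed under each alternative tried, including each fit that left out 1 mouse, and the jet-lagged one lost its call without all ZT2 mice (-0.48, adjusted p = 0.427) and without the acinar-rich arrays (-1.97, adjusted p = 0.0606). These comparisons share mice with the schedule comparisons of the same genes.

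Across members, age called 3 of 9 in steady mice, where 0.9% of all genes were called, and 3 of 9 in jet-lagged mice (5.3%). They were Hamp, Hamp2 and Bmp6 in steady mice, and Hamp2, Bmp6 and Id1 in jet-lagged mice. None of the 9 was called for a schedule difference that changed with age (0.00865% of all genes, with 1 member at unadjusted p under 0.05 in limma). The steady and jet-lagged age differences of Bmp6 were alike in size, 0.53 and 0.49, as were those of Id1, 0.62 and 0.77, and the 95% interval of the change between schedules ran from -0.38 to 0.30 for Bmp6 and from -0.44 to 0.75 for Id1.

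**Figure D3:**
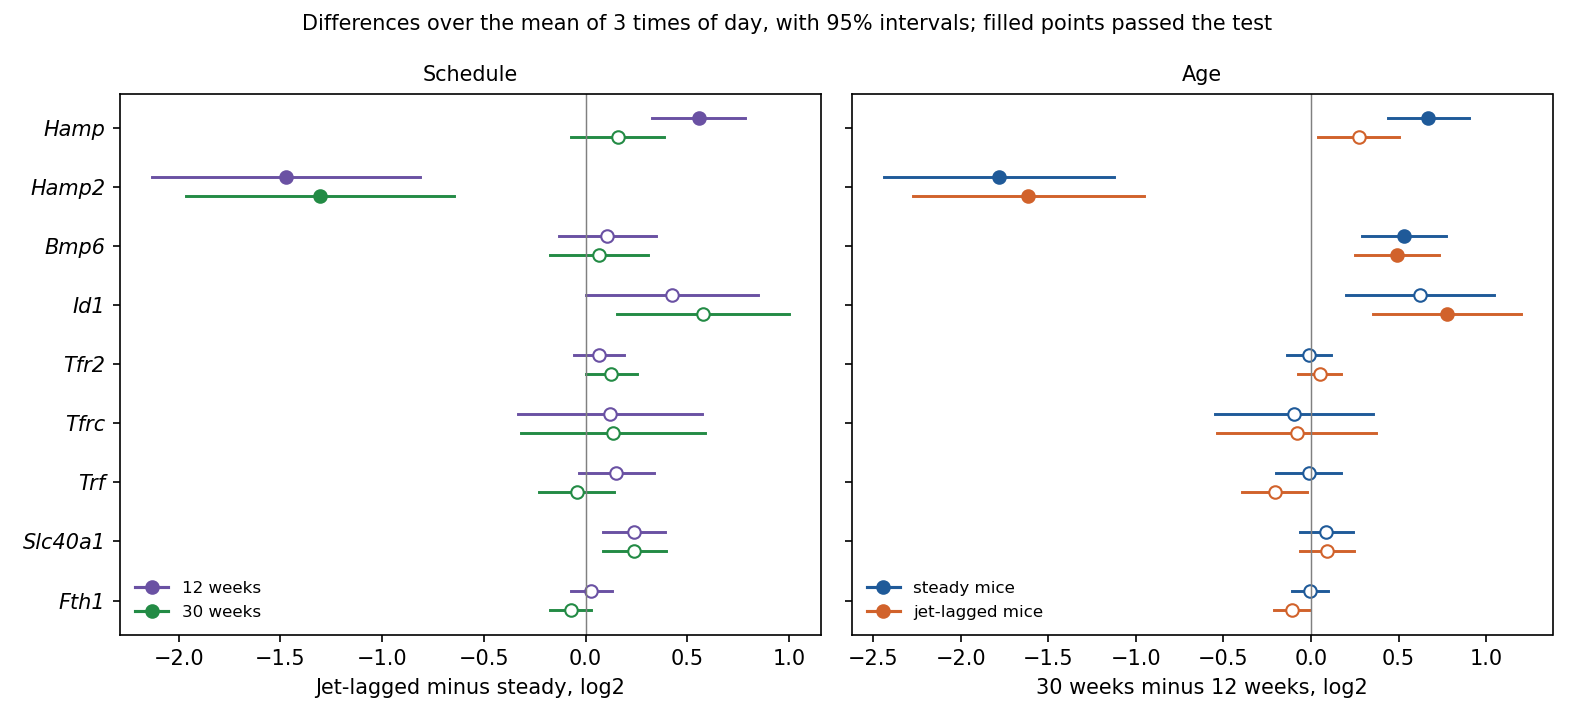
Fitted differences of the 9 members, jet-lagged minus steady at 12 and 30 weeks (left) and 30 minus 12 weeks in each schedule (right), log2 with 95% intervals, with filled points for an adjusted p under 0.05. Hamp2 is at -1.47 and -1.31 on the left and at -1.78 and -1.61 on the right, and Fth1, Trf, Tfr2 and Tfrc have intervals close to or across 0.

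Bmp6 (chr13:38345716-38500314), the ligand that instructs hepatocytes to make hepcidin, was higher in older livers of both schedules. Steady livers ran from -2.16 to -1.06 at 12 weeks (median -1.43, n = 8) and from -1.37 to -0.52 at 30 weeks (median -0.87), and jet-lagged livers from -2.10 to -0.99 (median -1.29) and from -1.14 to -0.60 (median -0.79). The ages overlapped in both schedules. The rise was 0.53 ± 0.12 in steady mice (adjusted p = 0.0246) and 0.49 ± 0.12 in jet-lagged mice (adjusted p = 0.0148), about 1.44-fold and 1.41-fold. Between schedules no Bmp6 difference was called, at 0.11 ± 0.12 at 12 weeks (adjusted p = 0.646) and 0.07 ± 0.12 at 30 weeks (adjusted p = 0.835). The 10 measured markers of liver endothelium, the cells that make BMP6, had a median age difference of 0.09 in steady and 0.01 in jet-lagged mice. In steady mice 2 were called higher in limma (0.9% of all genes called), with 5 at unadjusted p under 0.05. In jet-lagged mice 0 were called (5.3%), with 3 at unadjusted p under 0.05. The part of these cells in the Bmp6 difference was not tested. The steady age call of Bmp6 was lost without any 1 of 7 steady mice (0.48 to 0.52, adjusted p = 0.0506 to 0.137), and the jet-lagged one without ZT2 mouse 2 at 12 weeks (0.38, adjusted p = 0.107) or ZT2 mouse 1 at 30 weeks (0.48, adjusted p = 0.0567). Neither was called with no slide block (adjusted p = 0.132 and 0.0866) or without the acinar-rich arrays (0.46 and 0.53, adjusted p = 0.112 and 0.145), the steady one was not called without all ZT2 mice (0.50, adjusted p = 0.153), and under normexp background correction the differences were 0.30 and 0.23 (adjusted p = 0.0132 and 0.0254).

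Id1 (chr2:152736251-152737410), an inhibitor of DNA binding that BMP and SMAD signalling switches on in hepatocytes, was highest in jet-lagged livers of 30 weeks. At ZT18 those livers had Id1 levels of 3.27, 3.89 and 3.51, and the steady livers 2.10, 2.30 and 1.69, with no overlap. The difference was 1.49 ± 0.35 (3 against 3, adjusted p = 0.0168), a 2.80-fold higher signal. At ZT10 the jet-lagged livers had 2.84, 3.40 and 3.58 against 2.93, 2.17 and 2.59 (0.68 ± 0.35, adjusted p = 0.436), and at ZT2 they had 1.80 and 2.58 against 2.43 and 3.03 (-0.43 ± 0.43, adjusted p = 0.796). Over the 3 times the jet-lagged difference was 0.42 ± 0.20 at 12 weeks (adjusted p = 0.238) and 0.58 ± 0.20 at 30 weeks (adjusted p = 0.0977), and without all ZT2 mice the latter was 1.08 (adjusted p = 0.00585). At ZT18 and 12 weeks the 3 jet-lagged livers, from 2.45 to 2.53, also lay above the 3 steady ones, from 1.61 to 1.88, by 0.75 ± 0.35, which was not called (adjusted p = 0.273). From 12 to 30 weeks Id1 rose by 0.77 ± 0.20 in jet-lagged mice (adjusted p = 0.0272), and the steady difference was 0.62 ± 0.20 (adjusted p = 0.227). The ZT18 call at 30 weeks was lost without steady mouse 3 (1.23, adjusted p = 0.0955) or without jet-lagged mouse 2 or 3 (1.36 and 1.43, adjusted p = 0.0756 and 0.0751), with slide as a fixed block (1.44, adjusted p = 0.108) and without the acinar-rich arrays (1.47, adjusted p = 0.105). The Kupffer cell marker mean separated the same livers, at 3.45, 3.76 and 3.83 in jet-lagged and 2.80, 2.99 and 3.40 in steady mice, with 3 of 10 markers at unadjusted p under 0.05 and 0 called in limma, and its part in the Id1 difference was not tested. The age call was lost without any 1 of 8 jet-lagged mice (0.62 to 0.76, adjusted p = 0.0504 to 0.117), with slide as a fixed block or no slide block (0.80 and 0.76, adjusted p = 0.0693 and 0.0578) and without the acinar-rich arrays (0.74, adjusted p = 0.319).

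**Figure D4:**
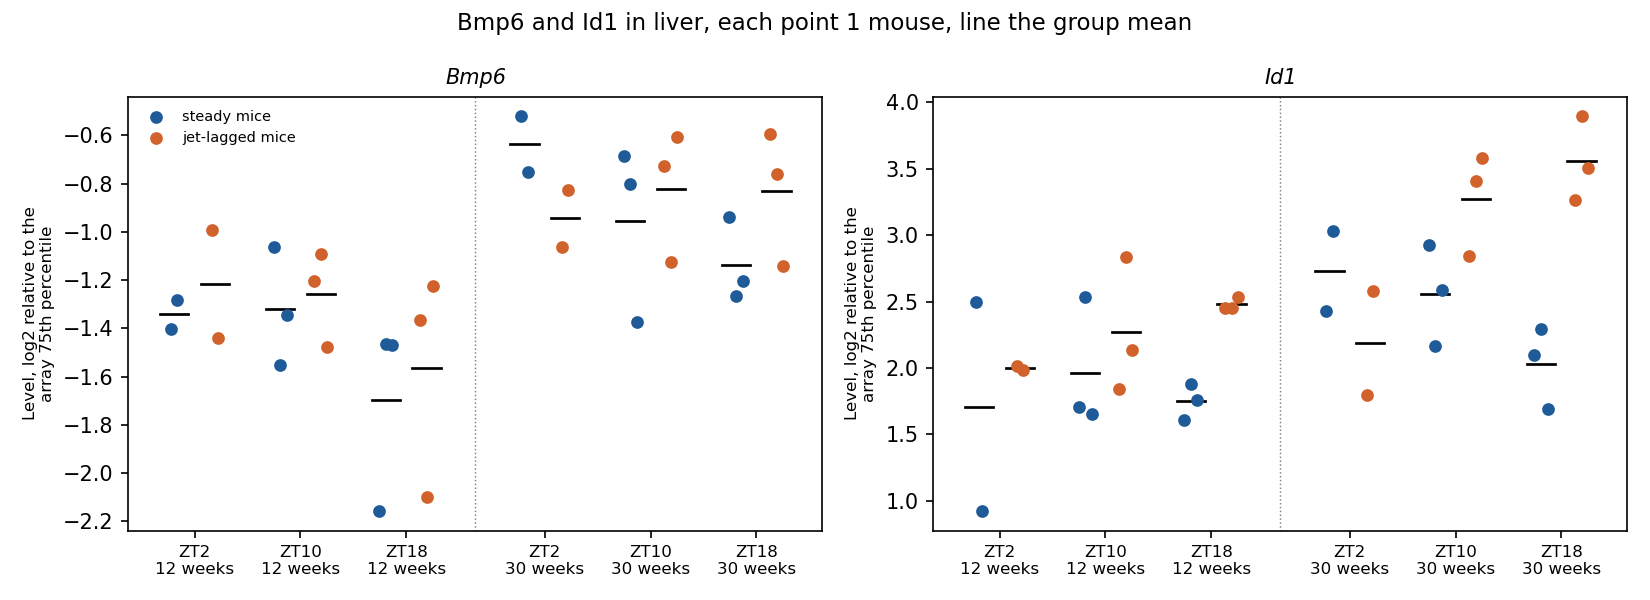
Levels of Bmp6 (left) and Id1 (right), log2 relative to the 75th percentile of each array, by time of day and age, with 1 point per mouse and the group mean as a line. Bmp6 reaches -0.52 at 30 weeks from a lowest level of -2.16 at 12 weeks, and the 3 jet-lagged livers at ZT18 and 30 weeks have Id1 between 3.27 and 3.89.

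Tfr2 was the steadiest member. Its 32 livers ran from 6.79 to 7.35, and it was called in none of the 17 comparisons in limma, with 2 at unadjusted p under 0.05. The gene lies at chr5:137569822-137588081. The jet-lagged difference was 0.07 ± 0.06 at 12 weeks (95% interval -0.06 to 0.19, adjusted p = 0.567) and 0.13 ± 0.06 at 30 weeks (0.00 to 0.25, adjusted p = 0.235). Tested on the normalised values of the authors' deposited table, with no slide block, the 30-week difference was 0.21 (limma adjusted p = 0.000674). Under quantile normalisation it was 0.22 (adjusted p = 0.00738).

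Other genes of hepcidin control were taken from lists. Of 25 measured genes of BMP and SMAD control of hepcidin, 3 were higher and 2 lower in jet-lagged mice at 12 weeks, where 4.44% of all genes were called, with a median difference of 0.11 against 0.03 over all genes. Hjv, which encodes hemojuvelin, the BMP co-receptor needed for hepcidin expression, was lower, at -0.71 ± 0.12 (adjusted p = 0.00258), and Smad1, a SMAD protein, at -0.45 ± 0.11 (adjusted p = 0.02). Atoh8, a transcription factor of the BMP response, was higher by 0.70 ± 0.14 (adjusted p = 0.0082), Fgl1, a liver-secreted protein known as a hepcidin suppressor, by 0.66 ± 0.19 (adjusted p = 0.0487), and the ligand gene Bmp2 by 0.23 ± 0.07 (adjusted p = 0.0459). At 30 weeks 1 was higher and 1 lower, where 6.25% of all genes were called (median -0.01 against -0.02 over all genes), Fgl1 by 0.79 ± 0.19 and the receptor gene Bmpr1a at -0.17 ± 0.05 (adjusted p = 0.0141 and 0.0375). None of the 25 was called for age in limma in steady mice (0.9% of all genes called) or in jet-lagged mice (5.3%). At unadjusted p under 0.05 in limma there were 6 in steady and 4 in jet-lagged mice.

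On the inflammatory side of hepcidin control, 1 of 15 measured genes of interleukin 6 and STAT3 signalling was higher at 12 weeks (4.44% of all genes were called), and 1 was higher and 1 lower at 30 weeks (6.25%). The 12-week count is near the share over all genes. Il6ra, the interleukin 6 receptor, was higher in jet-lagged mice by 0.73 ± 0.11 and 0.37 ± 0.11 (adjusted p = 0.000622 and 0.0404), and the receptor gene Tnfrsf1a was lower, at -0.20 ± 0.05 at 30 weeks (adjusted p = 0.0246). Of 21 acute phase genes, 1 was higher at 12 weeks (4.44% of all genes were called), and 6 were higher and 4 lower at 30 weeks (6.25%, median 0.18 against -0.02 over all genes). Saa1 and Saa2 were higher by 2.13 ± 0.41 and 2.17 ± 0.41 (adjusted p = 0.00262 and 0.00256). By time Saa1 differed by 5.69 at ZT2, by 1.36 ± 0.69 at ZT10 (adjusted p = 0.44) and by -0.66 ± 0.69 at ZT18 (adjusted p = 0.727). The list gave 6 higher at ZT2 (1.36% of all genes called) and 1 lower at ZT18 (3.47%). At ZT10 none was called in limma (0.736%), with 4 at unadjusted p under 0.05. The ZT10 and ZT18 counts are near the shares over all genes. The list medians at ZT2, ZT10 and ZT18 were 0.62, 0.12 and -0.27, against -0.03, -0.03 and -0.01 over all genes. In the mean over the times, the 4 lower genes were Crp and the fibrinogen chains Fga, Fgb and Fgg.

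Counts of members that varied with time of day are given beside the share of all genes that did. In steady mice 1 of 9 varied over the 3 times at 12 weeks, where 17.4% of all genes did, and 1 at 30 weeks (11.2%). In jet-lagged mice 0 of 9 varied at 12 weeks (5.7%), with 1 at unadjusted p under 0.05 in limma, and 2 at 30 weeks (3.62%). None of the 9 was called for a daily profile that differed between schedules, at 12 weeks (1.9% of all genes, 1 member at unadjusted p under 0.05) or at 30 weeks (1.97%, 3 members). The members that varied were Slc40a1 and Tfrc in steady mice and Hamp2 and Fth1 in jet-lagged mice.

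Hamp2 in jet-lagged mice of 30 weeks ranged over 2.99 between its lowest group, ZT2, and its highest, ZT18 (adjusted p = 0.0158), and the 3 groups did not overlap. In steady mice of that age the range was 0.35 (adjusted p = 0.915), and the test of the profiles against each other gave adjusted p = 0.199. The call of the jet-lagged range was lost without either ZT2 mouse (2.60 and 3.39, adjusted p = 0.149 and 0.0639) and without ZT18 mouse 2 (2.77, adjusted p = 0.0657). It was lost too with acinar and muscle covariates (3.38, adjusted p = 0.0881), with slide as a fixed block (2.91, adjusted p = 0.0562) and without the acinar-rich arrays (2.80, adjusted p = 0.0921). The muscle marker mean ran in the same order in these groups, at -4.20, 0.50 and 2.42 at ZT2, ZT10 and ZT18, with 11 of 11 markers at unadjusted p under 0.05 and 0 called in limma. Hamp in steady mice of 12 weeks ranged over 0.69 from ZT2 up to ZT18 (adjusted p = 0.0659).

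Tfrc (chr16:32608896-32632794), the receptor that brings transferrin-bound iron into cells, had a daily profile in the steady group of 30 weeks. The livers had Tfrc levels of -0.57 and -0.11 at ZT2, -1.62, -1.12 and -0.12 at ZT10, and 0.48, 0.33 and 1.19 at ZT18. The 3 livers of ZT18 lay above all others, and the range was 1.53 (adjusted p = 0.0261), a 2.90-fold span. The second passing probe of Tfrc gave a range of 1.24. Muscle markers moved with it, since the mean of the 11 measured ones was between 1.06 and 2.70 in the ZT18 livers, between -3.84 and -0.96 at ZT10, and at -4.25 and 0.64 at ZT2. With the acinar and muscle marker means as covariates the range was 1.15 (adjusted p = 0.329). The call was also lost without ZT10 mouse 1 or 2 or ZT18 mouse 1 or 3 (1.18 to 1.51, adjusted p = 0.0764 to 0.128), with slide as a fixed block (1.44, adjusted p = 0.134) and without the acinar-rich arrays (1.44, adjusted p = 0.181).

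At ZT10 the Tfrc levels of the schedules lay apart, without a call. The jet-lagged livers had 0.31, 0.17 and 0.53 at 12 weeks against 0.10, -0.04 and -1.19 in steady livers, and 0.48, 0.42 and 0.10 at 30 weeks against -1.62, -1.12 and -0.12. The groups did not overlap at either age, and neither difference was called, at 0.86 ± 0.37 (adjusted p = 0.238) and 1.17 ± 0.37 (adjusted p = 0.149). The second passing probe gave 0.96 ± 0.39 at 12 weeks and 0.73 ± 0.39 at 30 weeks. The muscle marker mean was from -0.02 to 1.80 in the jet-lagged and from -4.45 to -1.56 in the steady livers of ZT10 at 12 weeks, with a median marker difference of 4.14 (9 of 11 at unadjusted p under 0.05, 0 called in limma). At 30 weeks the median was 3.23 (4 of 11 at unadjusted p under 0.05, 0 called). With the acinar and muscle marker means as covariates the Tfrc differences were 0.56 and 0.95 (adjusted p = 0.66 and 0.386). Over the 3 times the differences were 0.12 ± 0.22 and 0.14 ± 0.22 (adjusted p = 0.801 and 0.818).

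Trf (chr9:103208876-103230286), the plasma iron carrier made by hepatocytes, was called in none of the 17 comparisons in limma, with 1 at unadjusted p under 0.05. Its livers ran from 10.13 to 11.18, the lowest group being the jet-lagged one of ZT2 at 30 weeks, with levels of 10.18 and 10.13. Jet-lagged mice differed by 0.15 ± 0.09 at 12 weeks (adjusted p = 0.348) and by -0.04 ± 0.09 at 30 weeks (adjusted p = 0.864). The second Trf probe gave 0.03 and -0.04. At ZT2 of 30 weeks the difference was -0.28 ± 0.19 with the probe used and -0.10 ± 0.14 with the second probe. The array with the highest 75th percentile of all was in that jet-lagged group (mouse 2). The slide whose 4 arrays had the lowest percentiles held Trf levels of 11.18, 10.91, 10.90 and 10.81. Steady mouse 3 of ZT10 at 30 weeks, also at 10.13, had a percentile in between. The part of array scaling in the Trf levels was not tested.

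Slc40a1 (chr1:45908070-45926532), the iron exporter that hepcidin acts on, had a daily profile in the steady group of 12 weeks. The livers had Slc40a1 levels of 3.51 and 3.44 at ZT2, 4.07, 4.14 and 3.74 at ZT10, and 3.85, 3.88 and 4.02 at ZT18. Both ZT2 livers were below all others, and the range was 0.54 (adjusted p = 0.0296), a 1.45-fold span. In steady mice of 30 weeks the highest time was again ZT10, and the lowest was ZT18 (0.39, adjusted p = 0.0811). The 12-week call was lost without either ZT2 mouse or ZT10 mouse 1 or 2 (0.47 to 0.58, adjusted p = 0.0687 to 0.179), with no filter on dim probes (0.54, adjusted p = 0.0624) and with slide as a fixed block (0.58, adjusted p = 0.0511).

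The jet-lagged ZT2 livers of 12 weeks, at 3.90 and 4.51, lay above both steady ones. That difference was 0.68 ± 0.16 (2 against 2, adjusted p = 0.0766). Over the 3 times Slc40a1 differed by 0.24 ± 0.07 at each age, just short of a call at both (adjusted p = 0.0662 at 12 weeks and 0.0542 at 30 weeks). It passed at both ages in the normalised values of the authors' deposited table, fitted with no slide block (0.19 and 0.31, limma adjusted p = 0.0191 and 0.000485). Without jet-lagged ZT2 mouse 1 of 12 weeks, which leaves that group 1 mouse at 4.51, the differences were 0.34 and 0.24. The mean of the 10 Kupffer cell markers, macrophages rich in this exporter, ran from 2.65 to 3.82 in steady and 2.44 to 3.78 in jet-lagged livers at 12 weeks, and from 2.80 to 3.47 and 3.01 to 3.83 at 30 weeks. The part of these cells in the Slc40a1 values was not tested.

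**Figure D5:**
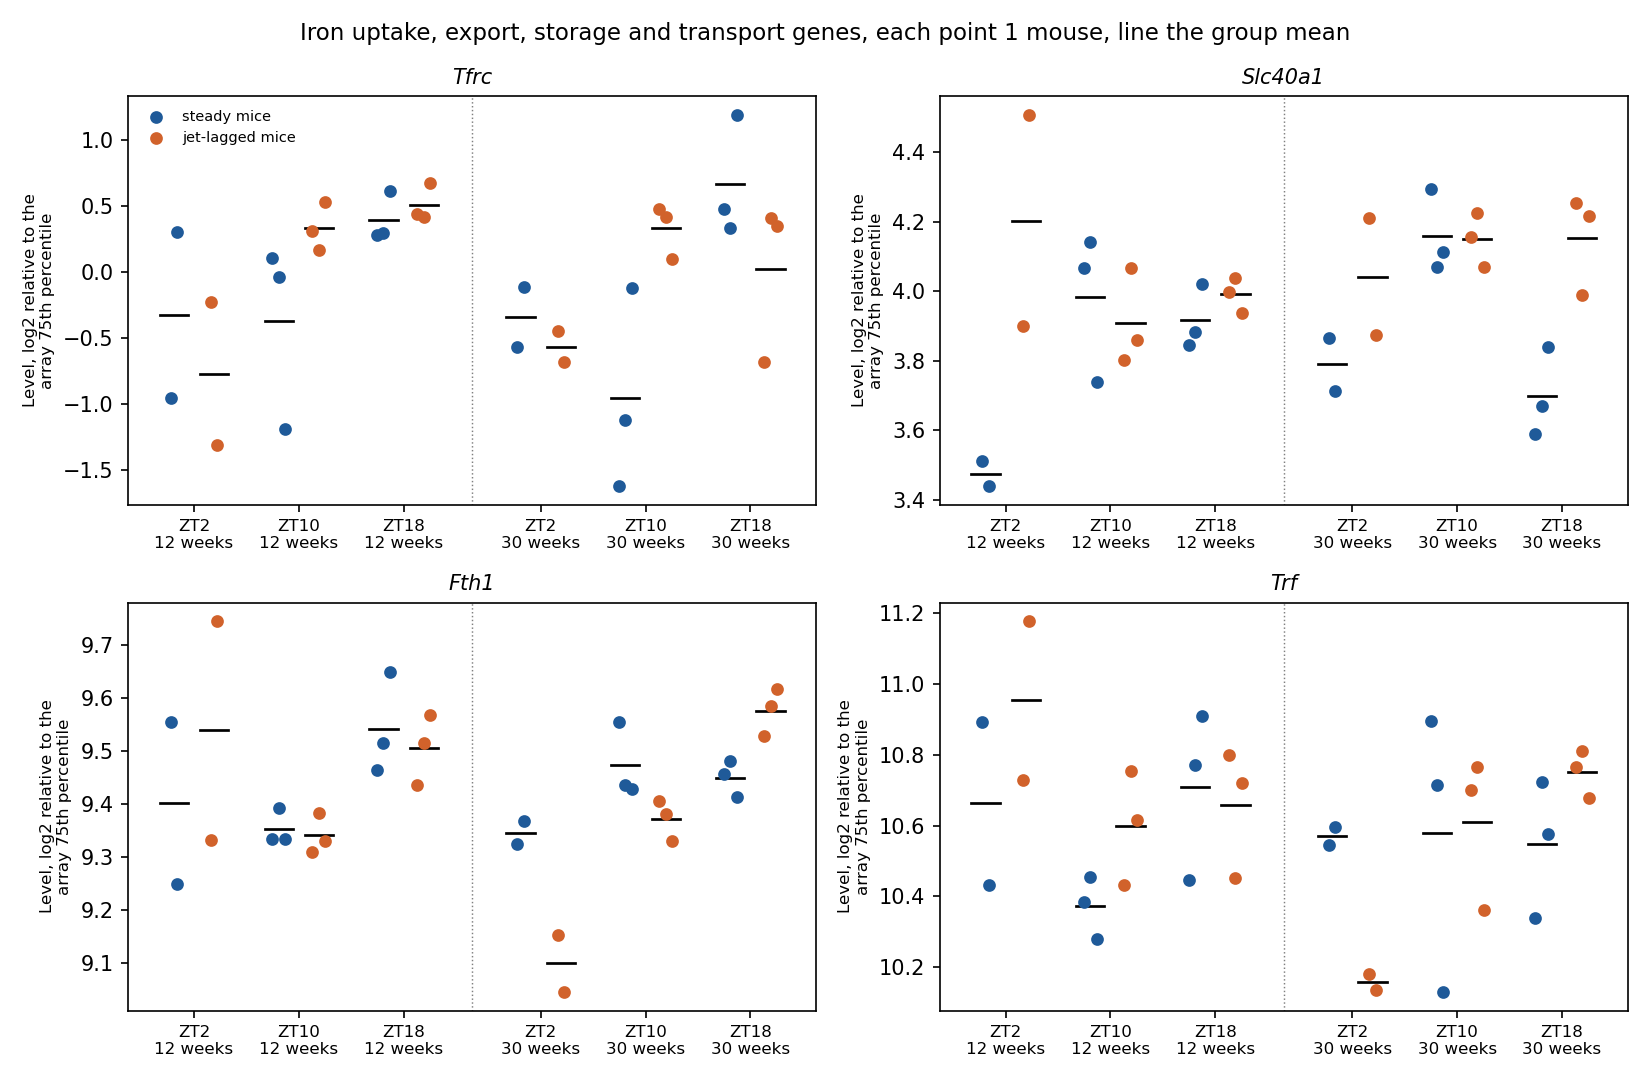
Levels of Tfrc, Slc40a1, Fth1 and Trf, log2 relative to the 75th percentile of each array, by time of day and age, with 1 point per mouse and the group mean as a line. Steady Slc40a1 is lowest at ZT2 of 12 weeks (3.44 and 3.51), steady Tfrc of 30 weeks is lowest at ZT10 (down to -1.62), and jet-lagged Fth1 and Trf are lowest at ZT2 of 30 weeks.

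Fth1 (chr19:9980600-9985111), the ferritin subunit that oxidises iron for storage, was nearly level, from 9.05 to 9.75 over the 32 livers. In jet-lagged mice of 30 weeks it had levels of 9.15 and 9.05 at ZT2, 9.41, 9.38 and 9.33 at ZT10, and 9.53, 9.59 and 9.62 at ZT18, with no overlap between times. The range was 0.45 (adjusted p = 0.0206). Quantile normalisation brought the range to 0.17 (adjusted p = 0.567) and the authors' deposited table to 0.23 (adjusted p = 0.134). The call was also lost without either ZT2 mouse or ZT18 mouse 3 (0.40 to 0.50, adjusted p = 0.0672 to 0.228), with no filter on dim probes (0.45, adjusted p = 0.0595), acinar and muscle covariates (0.52, adjusted p = 0.0738) or slide as a fixed block (0.41, adjusted p = 0.104), and without the acinar-rich arrays (0.48, adjusted p = 0.0898). The schedules differed by 0.03 ± 0.05 at 12 weeks and -0.07 ± 0.05 at 30 weeks (adjusted p = 0.788 and 0.447). In the jet-lagged groups of 30 weeks the hepatocyte marker mean ran in the same order as Fth1, at 9.27, 9.44 and 9.53 at ZT2, ZT10 and ZT18. Apart from quantile normalisation and the authors' table, the part of array scaling in the Fth1 range was not tested.

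Of 17 measured further genes of iron uptake, storage and export, 1 was higher and 1 lower in jet-lagged mice at 12 weeks and 1 lower at 30 weeks, beside 4.44% and 6.25% of all genes called, with medians of -0.02 and 0.03 against 0.03 and -0.02 over all genes. The metal importer Slc39a8 was lower at both ages, at -0.24 ± 0.05 and -0.33 ± 0.05 (adjusted p = 0.00781 and 0.000238). Its relative Slc39a14, a hepatocyte importer of iron not bound to transferrin, was higher at 12 weeks by 0.32 ± 0.08 (adjusted p = 0.0299). Steap3, a ferrireductase of endosomes, was lower at ZT18 at both ages (-0.57 ± 0.14 and -0.80 ± 0.14, adjusted p = 0.032 and 0.0027). Of 11 genes of the iron regulatory protein system, 1 was lower at 12 weeks (4.44% of all genes) and none was called at 30 weeks in limma, with 2 at unadjusted p under 0.05 (6.25% of all genes called). Fbxl5, the iron-sensing ligase subunit that removes IRP2, was lower, at -0.64 ± 0.15 (adjusted p = 0.0177). Haem genes gave 1 higher and 2 lower of 21 at 12 weeks (4.44% of all genes) and 3 higher and 1 lower at 30 weeks (6.25%), the latter with Alas1, the first enzyme of haem synthesis, 2.15-fold higher (adjusted p = 0.00955). Of 22 genes of mitochondrial iron and iron-sulfur clusters, 1 was higher at 12 weeks (Iscu, a scaffold protein, 0.15 ± 0.04, adjusted p = 0.0459) and 1 lower at 30 weeks (Bola3, -0.19 ± 0.06, adjusted p = 0.0472), counts near or under the 4.44% and 6.25% of all genes called.

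Ordered by group mean, Hamp2 ran from 4.38 ± 0.56 (SD, n = 3) in steady mice of ZT18 at 12 weeks to -0.25 ± 0.41 (n = 2) in jet-lagged mice of ZT2 at 30 weeks. Each neighbour in that order overlapped the next but the lowest pair, where jet-lagged ZT10 at 30 weeks was at 1.03 ± 0.30 (SD, n = 3). The lowest group also stood clear of the next for Fth1, Slc40a1 and Trf. For Hamp, from 8.69 ± 0.14 in jet-lagged mice of ZT18 at 30 weeks to 7.33 ± 0.37 in steady mice of ZT2 at 12 weeks, all neighbours overlapped, as they did for Bmp6, Id1, Tfr2 and Tfrc.

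Over the 12 group means, which rest on the same livers for every gene, Hamp and Hamp2 had a Pearson correlation of -0.67. Hamp went with Slc40a1 (0.69), Id1 (0.67) and Bmp6 (0.52), and Fth1 with Trf (0.83). Of 13683 named genes compared, the one most like Fth1 was Ftl1, the light ferritin chain (0.96), and the ones most like Tfr2 were Hp, the haptoglobin gene (0.90), Isyna1 (0.88) and Ifitm2 (0.87). The genes most like Hamp were Aatk (0.92), Nr5a1 (0.91) and Cd59a (0.91), those most like Hamp2 were H2-Q1 (0.91), Sdha (0.88) and Ugt1a10 (0.88), and those most like Bmp6 were Prelid2 (0.96), Cplane1 (0.91) and Slc22a29 (0.91). Cd63 (0.88), Fgf21 (0.87) and Acyp2 (0.86) were most like Id1, Rusc2 (0.92), Tmem37 (0.92) and Pcp4l1 (0.91) most like Tfrc, Synrg (0.95), Mup20 (0.95) and Gstp2 (0.94) most like Trf, and Fam89b (0.92), Zfp346 (0.91) and Mbd1 (0.91) most like Slc40a1. These are descriptions over 12 points, from levels that share the scaling of each array. The part of that scaling in the correlations was not tested.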

How the data were processed

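Liver RNA of 32 mice was hybridised to 1-colour Agilent arrays, 1 mouse per array and 4 arrays on each of 8 slides. The authors deposited for each array the scanner output, whose processed signal is a background-subtracted intensity, per the file headers made with Feature Extraction 11.0.1.1, while the submitters' processing notes name version 9.1. A further table deposited by the authors gives log2 values after normalisation and removal of a batch effect, per the series' design text, with the method not given in the sources used here. It holds 8 of the 9 members (not Bmp6) and served as an alternative, fitted with no slide block and adjusted over the genes of its 15148 probes. The fit does not account for the earlier removal of a batch effect, so its p-values are not like for like with the others. No scaling between arrays precedes the scanner values, so log2 of the signal minus the 75th percentile of each array was used. Control spots were left out, spots of a probe were averaged, and a probe was kept where some group had it well above background in each of its mice, which left 30487 of 55681 probes and 23109 genes. A gene with several probes was read by its brightest passing probe. Group means were fitted over all 32 arrays in R 4.3.3 with the methods of limma 3.58.1, with slide as a random block (correlation 0.25), in 17 comparisons, each adjusted by Benjamini-Hochberg over all genes. The fit was tested on simulated data. Sequences were aligned with Biopython 1.88. The planned normexp correction used median signals, since the files hold no mean signal, as chosen after seeing the files. That the numbers of mice do not pair the groups was checked by the correlation of residuals (median -0.05 for same-numbered mice). All 9 members are named, and from each list up to 3 called genes of largest size per comparison, with Smad1, Bmp2, Crp, Fga, Fgb and Fgg added after their values were seen, and the 3 genes most like each member. The members and lists were chosen with earlier results of these data known. The number of arrays limits the precision.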

Additional observations from a re-analysis of the deposited data

How the results depend on the processing

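Counts of calls over the 9 members were 3 for schedule means, 3 for schedule at single times, 4 for time of day, 0 for schedule by time of day and 6 for age. For schedule means they were 5 with quantile normalisation, 5 with probes well above background on all arrays, 5 with acinar and muscle marker covariates, 0 without the acinar-rich arrays (an alternative chosen after seeing the data) and 7 in the authors' table. At single times they were 1 with no filter on dim probes, 1 with slide as a fixed block, 1 with no slide block and 8 in the authors' table. For time of day they were 2 with no filter, 1 with the covariates, 0 with slide as a fixed block, 2 without the acinar-rich arrays and 9 in the authors' table, and for schedule by time of day 1 in the authors' table. For age they were 3 with no slide block, 2 without the acinar-rich arrays and 3 without all ZT2 mice. The cause of these moves was not tested. The authors' table was fitted with no slide block on values with a batch effect already removed, so its counts are not like for like. Fits without arrays rest on fewer of them (22 without the acinar-rich ones). Leaving out each mouse in turn gave 2 to 5, 2 to 5, 2 to 5, 0 to 1 and 4 to 7 calls in the same order. The replicate block, tried because mice share numbers, gave 3, 3, 4, 0 and 6 and changed no count. No called difference between schedules or ages changed sign under any alternative. The calls over time of day are ranges, which have no sign. The fit without the acinar-rich arrays leaves 1 mouse in some groups. In it Hamp2 differed between schedules by -1.53 at 12 weeks and -1.42 at 30 weeks, as large as with them and not called. The Hamp difference at 12 weeks was smaller than with them. Hamp2 in steady mice by age kept its call throughout. The probes used lay well above background on all arrays for all 9 members. That flag does not show that the differences are free of background, and those of Bmp6 by age were smaller under normexp background correction.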
